A study of Mus musculus with 8 samples.

Results

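The genes followed here are 9 genes of bile duct epithelium and of its embryonic precursor, the hepatoblast: Krt19, Krt7, Sox9, Sox4, Epcam, Spp1, Cftr, Jag1 and Cdh1. They were chosen by name from the 22059 gene symbols measured, and all 9 were found in every sample. Whole liver of FVB mice (FVB/NJ in the study's methods) was profiled by poly(A) RNA sequencing at 4 stages, embryonic day 18 (E18), postnatal day 14 (P14), postnatal day 28 (P28) and adult, with 2 samples at each stage. The labels name no engineered allele and no treatment, and the adult mice were 3 months of age. The labels do not say whether the duplicates came from separate animals or from pools, or of which sex. The p-values below therefore measure only the spread between these samples, estimated over all 4 stages in one fit. Each sample held between 68154675 and 106055723 reads on genes, and of these genes 17081 had enough reads to be tested, the 9 genes among them.

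During liver development, hepatoblasts give rise both to hepatocytes and to cholangiocytes, the epithelial cells that line the bile ducts. Around the portal vein, hepatoblasts that receive Notch signals, mainly from the ligand Jagged1 on the portal mesenchyme, turn on Sox9 and form a ductal plate, which is remodelled into ducts around and after birth. Cholangiocytes make up a small part of the liver, so their genes are read here against a large background of hepatocyte RNA. Several of the 9 genes are not specific to ducts: Cdh1 is also made by hepatocytes, Jag1 by vessels and mesenchyme, and Epcam, Cftr, Krt19, Krt7 and Sox9 also by epithelium of the pancreatic ducts or the gut. Whether the reads of Sox4 and Spp1 came from ducts alone was not tested either. In bulk liver, fewer cells of a type and less RNA per cell cannot be told apart.

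Levels are given as RPKM, reads per kilobase of gene scaled by the total reads of the library, which can be compared between genes. Changes between stages are log2 fold changes of read counts from edgeR after TMM scaling, which corrects for a few abundant genes taking a large share of the reads, and are given with their standard error (SE). A gene was called changed when its adjusted p was below 0.1 and its change was over 3-fold. The scaling matters for every comparison with E18. Over all genes tested, the median log2 change from E18 to adult was -0.11 with TMM and -0.955 when libraries were scaled by their size alone. On log2(RPKM + 0.1) it was -0.784, a shift in the same direction.

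Between E18 and adult, 5 of the 9 genes fell, 1 rose and 3 were not called. Krt19, Krt7, Sox4, Epcam and Cftr fell between 4.64-fold and 18-fold, Spp1 rose 5.18-fold, and Sox9, Jag1 and Cdh1 had log2 changes between 0.01 and 0.04 with TMM that turned negative with library size alone. Among all genes tested, 23.8% fell and 16.8% rose by the same criteria, so a fall or a rise over this interval was common. The median log2 change of the 9 genes was -2.22, against -0.11 for all genes. The plot of levels by sample shows that the 9 genes did not share a single course.

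**Figure D1:**
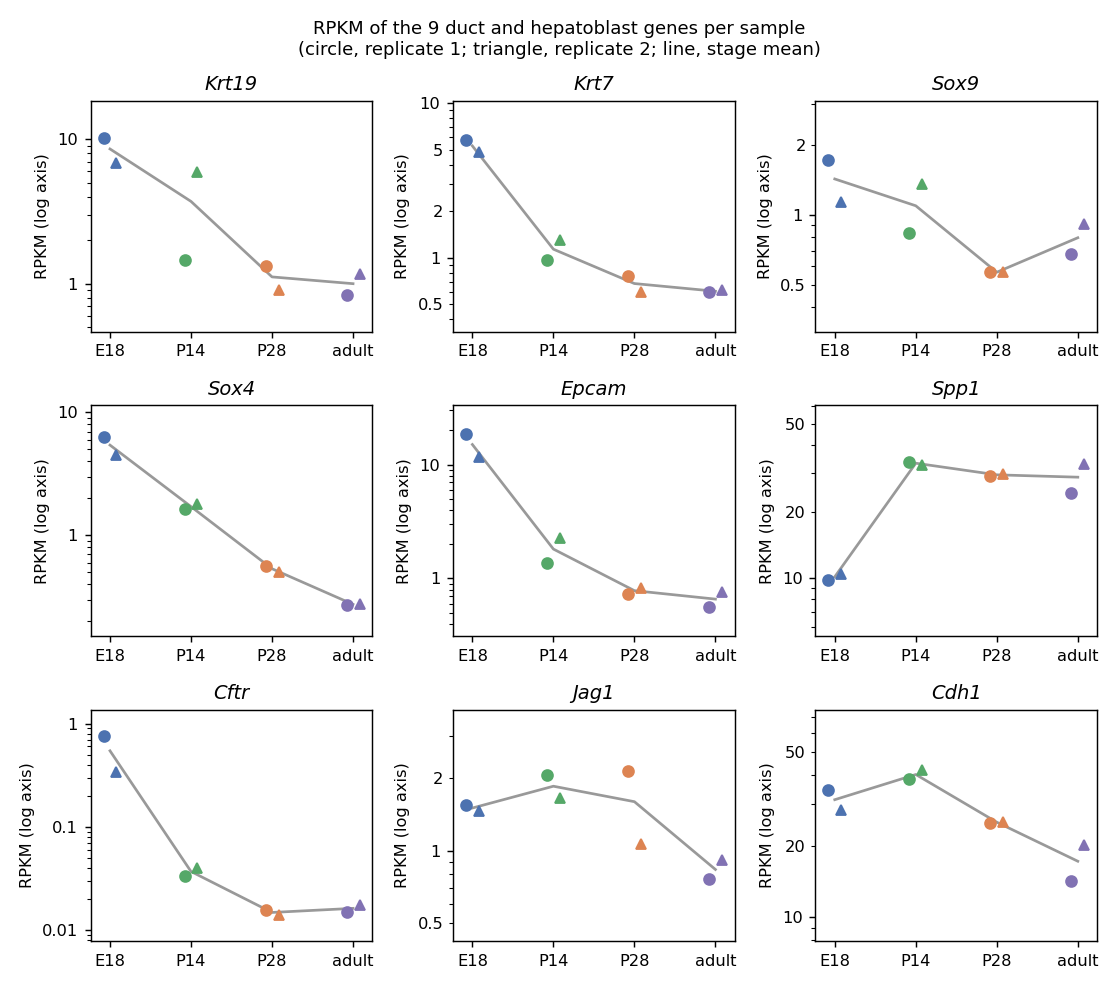
RPKM (log axis, one scale per panel) of each of the 9 genes in each of the 8 samples by stage, with circles for replicate 1, triangles for replicate 2 and a line through the stage means of 2 samples. Mean Sox4 is lower at each successive stage, from 5.43 to 0.274, Spp1 climbs from 10.1 at E18 to 33.2 at P14 and stays near that level, and the 2 P14 samples stand far apart for Krt19.

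The keratins Krt19 and Krt7 form the intermediate filaments of duct epithelium and are the usual markers by which ducts are recognised. Krt19 stood at 10.2 and 6.88 RPKM in the E18 samples, 1.46 and 5.965 at P14, then 1.33 and 0.901 at P28 and 0.838 and 1.17 in adults. The second P14 sample was close to the E18 samples and the first was close to the P28 samples, a gap of 226 against 908 reads. From E18 to adult Krt19 fell by 2.22 on the log2 scale (SE 0.57, edgeR adjusted p = 0.0057). Without any one sample the log2 change lay between -2.45 and -1.92. That SE takes in the spread of the P14 pair. A fit of E18 and adult alone gave -2.21 (SE 0.25, edgeR adjusted p = 9.1e-05).

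When between E18 and P28 the level of Krt19 dropped depended on 1 library. With all samples, the log2 change was -0.34 from E18 to P14 (SE 0.52, edgeR adjusted p = 0.57) and -1.70 from P14 to P28 (SE 0.56, edgeR adjusted p = 0.035), and only the second was called. Without the second P14 sample these became -1.68 (edgeR adjusted p = 0.0023) and -0.34 (edgeR adjusted p = 0.46), so that the call moved to the earlier interval. Without the first P14 sample the earlier change was 0.36 (edgeR adjusted p = 0.31) and the later one -2.39 (edgeR adjusted p = 0.00069). The call from P14 to P28 was also lost without the second P28 sample, at -1.44 (edgeR adjusted p = 0.15).

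Krt7 measured 5.74 and 4.82 RPKM at E18, 0.973 and 1.3 at P14, then 0.764 and 0.5975 at P28 and 0.598 and 0.617 in adults. Both E18 samples lay far above every later sample, and the P28 and adult samples overlapped. It fell by 2.24 on the log2 scale from E18 to adult (SE 0.21, edgeR adjusted p = 9.5e-06). Its change from E18 to P14 was -1.36 (SE 0.20, edgeR adjusted p = 0.00023), short of the 3-fold threshold, and -2.23 with library size alone, which passed it.

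Among the transcription factors, Sox9 and Sox4 parted. Both belong to the SOX family of HMG-box factors and act together in shaping the developing bile ducts. Sox9 was low at every stage, with 1.71 and 1.135 RPKM at E18, 0.832 and 1.35 at P14, then 0.566 and 0.567 at P28 and 0.679 and 0.914 in adults. By RPKM, P14 overlapped with both E18 and adult, both E18 samples were above both adult samples, and the P28 samples were the lowest and nearly equal. From E18 to adult the log2 change of Sox9 was 0.04 (SE 0.27, edgeR adjusted p = 0.91), a change that was -0.81 with library size alone, where the median of all genes was -0.955. The order of its stages depended on the scale as well, since E18 was the highest stage by RPKM and the third by TMM-scaled counts.

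Sox4 measured 6.35 and 4.50 RPKM at E18, 1.625 and 1.799 at P14, then 0.563 and 0.506 at P28 and 0.271 and 0.277 in adults. No 2 stages overlapped, and each was lower than the one before. It fell by 3.43 on the log2 scale from E18 to adult (SE 0.20, edgeR adjusted p = 3.3e-07), which is 10.8-fold. Its steps were -0.80 from E18 to P14 (SE 0.17, edgeR adjusted p = 0.0022), -1.64 from P14 to P28 (SE 0.18, edgeR adjusted p = 0.00016) and -0.98 from P28 to adult (SE 0.21, edgeR adjusted p = 0.015). With library size alone the step from E18 to P14 was -1.68, past 3-fold. With TMM the middle step alone was called, and it came to -1.56, just under 3-fold, without the second P14 sample or without the second P28 sample.

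Epcam and Cdh1 encode adhesion molecules of epithelial cells. EpCAM is found on hepatoblasts and cholangiocytes and is lost by mature hepatocytes, while E-cadherin, the product of Cdh1, is kept by periportal hepatocytes as well as ducts. Epcam measured 18.4 and 11.6 RPKM at E18, 1.36 and 2.27 at P14, then 0.730 and 0.833 at P28 and 0.559 and 0.759 in adults. The E18 samples were far above all others, and P28 overlapped with adult. It fell 12.4-fold from E18 to adult, by 3.63 on the log2 scale (SE 0.31, edgeR adjusted p = 4.3e-06), and most of the change came before P14, with -2.19 (SE 0.28, edgeR adjusted p = 9.6e-05).

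By mean RPKM, Cdh1 was the most abundant of the 9 genes at E18 and P14 and came after Spp1 at P28 and in adults. It measured 34.4 and 28.2 RPKM at E18, 38.3 and 41.7 at P14, then 25.05 and 25.2 at P28 and 14.2 and 20.1 in adults. The P14 samples were the highest, and the adult samples were the lowest by RPKM but overlapped with E18 by TMM-scaled counts. Its log2 change from E18 to adult was 0.01 (SE 0.15, edgeR adjusted p = 0.97) with TMM and -0.84 (edgeR adjusted p = 0.0011) with library size alone, where the median of all genes was -0.955. Between P14 and adult, the log2 change of Cdh1 was -1.21 (SE 0.15, edgeR adjusted p = 0.00019), short of the 3-fold threshold.

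Spp1 and Cftr encode a secreted and a membrane protein, both known from duct cells. Which cells their reads came from here was not tested. Osteopontin, the product of Spp1, is a matrix glycoprotein made by bile duct epithelium, and CFTR is the apical chloride channel that drives secretion of fluid and bicarbonate into bile. Spp1 measured 9.78 and 10.5 RPKM at E18, 33.7 and 32.6 at P14, then 29.0 and 29.7 at P28 and 24.3 and 33.0 in adults. Every postnatal sample was above both E18 samples, and the postnatal stages were close to each other. It rose by 2.57 on the log2 scale from E18 to P14 (SE 0.13, edgeR adjusted p = 2.4e-07), which is 5.93-fold, and its changes in later intervals lay between -0.20 and -0.06. From E18 to adult it rose by 2.37 (SE 0.13, edgeR adjusted p = 2.3e-07), and by 1.53 with library size alone, a value still positive but under 3-fold.

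Cftr was the least abundant of the 9 genes, with 0.753 and 0.336 RPKM at E18, 0.0338 and 0.0401 at P14, then 0.0155 and 0.0142 at P28 and 0.0150 and 0.0175 in adults. These adult values rest on 7 and 9 reads, against 444 and 179 at E18. It fell by 4.17 on the log2 scale from E18 to adult (SE 0.46, edgeR adjusted p = 2.7e-05), which is 18-fold, and by 3.01 from E18 to P14 (SE 0.39, edgeR adjusted p = 0.00011). After P14 it was lower at an adjusted p below 0.1 but short of 3-fold, with log2 changes of -1.27 from P14 to P28 (SE 0.52, edgeR adjusted p = 0.076) and -1.16 from P14 to adult (SE 0.53, edgeR adjusted p = 0.098).

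Jag1, the Notch ligand whose loss causes paucity of bile ducts, measured 1.55 and 1.46 RPKM at E18, 2.06 and 1.65 at P14, then 2.135 and 1.06 at P28 and 0.762 and 0.912 in adults. By RPKM the adult samples were the lowest, whereas by TMM-scaled counts the E18 and adult samples overlapped, and the P28 samples differed 2.05-fold between themselves by TMM-scaled counts. Its log2 change was 0.03 from E18 to adult (SE 0.29, edgeR adjusted p = 0.94) and -0.82 with library size alone. The change from E18 to P14 was 1.16 (SE 0.28, edgeR adjusted p = 0.0048) and that from P14 to adult -1.13 (SE 0.29, edgeR adjusted p = 0.009), neither of them over 3-fold.

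**Figure D2:**
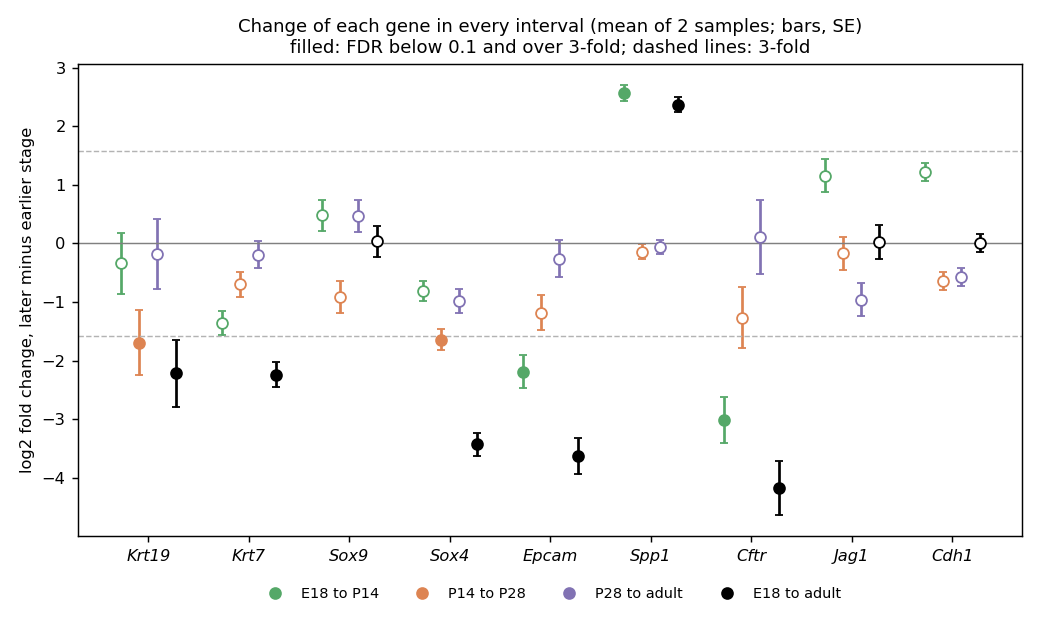
Log2 fold change (y axis, later minus earlier stage, with SE bars) of each of the 9 genes (x axis) in the intervals E18 to P14, P14 to P28 and P28 to adult and over the whole span from E18 to adult, with 2 samples a stage. Filled points passed an adjusted p below 0.1 and the 3-fold threshold (dashed lines), which Spp1, Epcam and Cftr did before P14, Krt19 and Sox4 between P14 and P28, and none of the 9 after P28.

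The genes called differed from interval to interval. From E18 to P14, Epcam and Cftr fell, Spp1 rose and 6 genes were not called, where 15.4% of all genes fell and 13.8% rose. At any fold, 4 of the 9 genes were lower (39.3% of all genes) and 3 were higher (38.2% of all genes) at an adjusted p below 0.1. Jag1 and Cdh1 were the other genes on the higher side, at 2.23-fold and 2.32-fold.

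From P14 to P28, Krt19 and Sox4 fell, while 5.98% of all genes fell and 3.61% rose. All 9 genes had a negative log2 change, with a median of -0.91 against -0.05 for all genes, and 7 of them were lower at an adjusted p below 0.1 at any fold, as were 28.6% of all genes. Spp1 and Jag1 were the exceptions, at -0.14 and -0.17. The share of all genes with a negative change was not computed, so the count of 9 has no background here. From P28 to adult edgeR called 0 of the 9 genes, as did DESeq2 and limma, where 2.24% of all genes fell and 0.767% rose. Without the fold threshold, Sox4, Cdh1 and Jag1 were lower (13.2% of all genes), and the same number, 3, had an unadjusted p below 0.05.

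The comparison of P14 with adult leaves the embryonic samples aside. Krt19 and Sox4 fell, with log2 changes of -1.87 (SE 0.57, edgeR adjusted p = 0.021) and -2.63 (SE 0.20, edgeR adjusted p = 8.9e-06), while 11.1% of all genes fell and 4.35% rose. The call for Krt19 was lost without the second P14 sample, at -0.52 (edgeR adjusted p = 0.24), and without the first adult sample, at -1.68 (edgeR adjusted p = 0.1). Epcam, at -1.44 (SE 0.30, edgeR adjusted p = 0.0034), passed 3-fold without the first P14 sample (-1.78) or without the second adult sample (-1.67). All 9 genes had a negative change, with a median of -1.16 against -0.03 for all genes, and at any fold 7 of the 9 were lower at an adjusted p below 0.1, as were 32.1% of all genes. For this comparison, too, the share of all genes with a negative change was not computed.

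The balance among the duct genes shifted with age when each level was set against Krt19 in the same sample. The ratio of Krt7 to Krt19 was 0.631 ± 0.098 at E18 and 0.621 ± 0.13 in adults (mean RPKM ratio ± SD, n = 2). The ratio of Spp1 to Krt19 was 0.956 and 1.52 at E18 against 29.0 and 28.3 in adults, and that of Sox9 to Krt19 was 0.168 and 0.165 at E18 against 0.81 and 0.784 in adults. The ratio of Cdh1 to Krt19 was 3.36 and 4.1 at E18 and 17.0 and 17.3 in adults. Epcam went the other way, from 1.8 and 1.69 to 0.666 and 0.651, as did Cftr, from 0.0736 and 0.0488 to 0.0179 and 0.0150. In the P14 duplicates the ratios followed Krt19 itself, with Spp1 to Krt19 at 23.1 in the first and 5.47 in the second. These ratios do not depend on the scaling of the libraries, but 2 samples against 2 cannot give an exact permutation p below 0.33, so they are given without a test.

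The sequence before the start site was read for those of the 9 genes that had one. RefSeq promoter windows (GRCm38.p6, 250 bases before to 50 after the start) were found for 6 of the 9 genes, Krt7, Sox4, Epcam, Spp1, Cftr and Jag1. The letters searched, on both strands, were ACAAAG for one core bound by SOX factors, AACAAT for another such core, TGGGAA for the core of the site of RBPJ, which is the DNA-binding partner of Notch, and TATAAA for the TATA box. No search word contains another. The 250 bases before the start are shown for Spp1, which rose, and for Sox4, Epcam and Cftr, which fell most, each 5′ to 3′ on the strand of the gene with matches in capitals. The windows are chr5:104434861-104435110 (plus strand, the first of 2 Spp1 starts), chr13:28953700-28953949 (minus strand), chr17:87635729-87635978 (plus strand) and chr6:18170437-18170686 (plus strand).
Spp1: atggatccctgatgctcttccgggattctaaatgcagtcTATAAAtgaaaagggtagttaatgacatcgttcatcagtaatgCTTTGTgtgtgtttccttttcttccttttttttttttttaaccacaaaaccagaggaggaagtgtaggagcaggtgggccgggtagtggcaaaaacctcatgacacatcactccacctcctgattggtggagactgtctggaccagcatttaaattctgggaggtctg
Sox4: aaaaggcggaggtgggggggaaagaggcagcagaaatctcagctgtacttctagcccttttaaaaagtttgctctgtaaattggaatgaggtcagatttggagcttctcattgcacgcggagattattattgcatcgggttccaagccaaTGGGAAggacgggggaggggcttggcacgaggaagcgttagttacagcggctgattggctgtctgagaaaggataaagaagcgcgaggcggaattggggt
Epcam: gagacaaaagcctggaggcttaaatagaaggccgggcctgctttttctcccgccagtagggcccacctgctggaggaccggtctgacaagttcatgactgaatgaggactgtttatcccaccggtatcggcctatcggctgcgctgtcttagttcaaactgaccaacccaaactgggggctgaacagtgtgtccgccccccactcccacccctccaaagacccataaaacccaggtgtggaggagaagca
Cftr: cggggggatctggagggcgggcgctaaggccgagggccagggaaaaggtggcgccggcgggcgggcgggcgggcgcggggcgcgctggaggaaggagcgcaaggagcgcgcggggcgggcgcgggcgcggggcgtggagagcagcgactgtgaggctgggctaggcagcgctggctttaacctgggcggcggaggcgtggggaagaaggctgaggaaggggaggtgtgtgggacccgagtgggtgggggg

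In the Spp1 window TATAAA starts at position -211 and ACAAAG, on the other strand and hence written CTTTGT, at -168, counted from the start site. The window of the second Spp1 start, not shown, holds ACAAAG on the other strand at -243 and none of the other search words, and its share of G and C was 36.7%. The Sox4 window holds TGGGAA at -100, and no search word was found for Epcam, Cftr, Krt7 or Jag1. Of all 32851 promoter windows of this length, 18.7% hold ACAAAG, 10.7% AACAAT, 25.6% TGGGAA and 13.6% TATAAA. The share of G and C over the window was 45.3% for the first Spp1 window, 52% for Sox4, 57% for Epcam, 66.3% for Krt7 and 71.3% for Cftr, with a median of 52.7% over all windows. These matches describe the letters and were not tested against expression.

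The genes around the 9 were followed through lists for the Notch pathway, ductal transcription factors, other cholangiocyte genes, other hepatoblast genes, and epithelial junctions and simple keratins. Of 18 Notch pathway genes other than Jag1, 4 fell from E18 to adult and 14 were not called, with a median log2 change of -0.52. This share is close to the 23.8% of all genes that fell, and so is no result about the pathway. Those that fell were the ligand Jag2 (log2 change -2.90), the Notch-modifying glycosyltransferases Lfng (-2.58) and Mfng (-2.71), and Nrarp, a feedback inhibitor and target of Notch (-2.67). The receptor Notch2 changed by 0.12 and the DNA-binding Rbpj by 0.32, neither called. Hes1, a classic Notch target, was at 10.8 and 10.4 RPKM at E18, 14.0 and 12.4 at P14, and 4.58 and 3.87 in adults, and it fell by 1.62 on the log2 scale from P14 to adult (edgeR adjusted p = 1.4e-05), 1 of 5 genes of the list to fall in that comparison, where 11.1% of all genes fell. With library size alone, 7 of the 18 fell from E18 to adult, where the median log2 change of all genes was -0.955. The share of all genes that fell with that scaling was not computed.

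Of 10 ductal transcription factors, 3 fell and 3 rose from E18 to adult, where 23.8% of all genes fell and 16.8% rose. With so few genes these counts are no result about the list. The epithelial factors Klf5 (log2 change -4.22), Grhl2 (-2.36) and Elf3 (-2.11) fell, and the liver factors Onecut1 (4.12) and Onecut2 (2.73) were among those that rose. Onecut1 varied widely between P28 duplicates, at 17.7 and 2.03 RPKM.

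Of 20 other cholangiocyte genes tested, 8 fell and 2 rose from E18 to adult, with a median log2 change of -1.42. Of all genes, 23.8% fell and 16.8% rose. Tspan8, a tetraspanin of epithelia, was at 29.98 and 41.1 RPKM at E18 and 0.498 and 0.747 in adults, and the tight junction gene Cldn7 fell by 3.49 on the log2 scale. Prom1, a membrane glycoprotein of progenitor and duct cells, was still at 11.4 and 12.35 RPKM at P14 and then at 0.8495 and 0.443 at P28. Slc10a2, the apical sodium-dependent bile acid transporter of ducts and ileum, was listed at 0 and 0.00726 RPKM at E18, at 0.0545 and 0.0388 at P14, and at 8.98 and 10.4 in adults. Pkhd1, the fibrocystin gene of the primary cilium, was the other gene called higher, at a log2 change of 1.70 with TMM, while its RPKM values of 0.226 and 0.2415 at E18 and 0.360 and 0.470 in adults were under 3-fold apart. With library size alone, 12 of the 20 fell and 1 rose, where the median log2 change of all genes was -0.955. The shares of all genes called with that scaling were not computed.

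Of 9 other hepatoblast and fetal liver genes, 6 fell and 1 rose from E18 to adult, where 23.8% of all genes fell and 16.8% rose. Afp, the fetal serum protein, was at 25150 and 19090 RPKM at E18 and 1.86 and 2.34 in adults. Dlk1, a surface protein of hepatoblasts, went from 363 and 428 RPKM to 0.00282 and 0.00254, and the RNA-binding factor Lin28b from 6.09 and 6.695 to 0 in both. Lin28b had next to no reads after birth and so was tested only through E18. Hhex, a homeobox factor of liver specification, rose by 3.47 on the log2 scale. The list's median was -9.69, or -8.93 with Lin28b set at its bound of 3 reads per library. Of 15 junction and simple keratin genes, 4 rose and 11 were not called, with a median of 1.24, where 16.8% of all genes rose and 23.8% fell. Those that rose were the claudins Cldn2 (5.60) and Cldn3 (5.56) and the keratin pair shared by hepatocytes and ducts, Krt8 (1.83) and Krt18 (1.68). With library size alone 2 of the 15 rose, where the median log2 change of all genes was -0.955. The share of all genes that rose with that scaling was not computed.

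**Figure D3:**
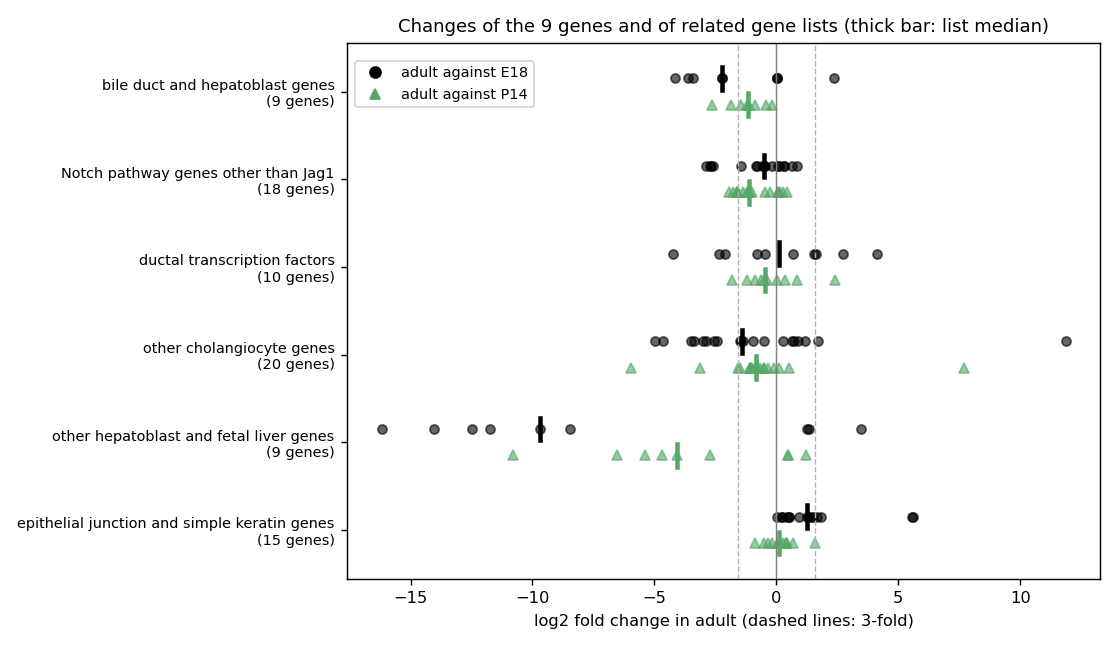
Log2 fold change (x axis) in adult against E18 (black circles) and against P14 (green triangles) of the 9 genes and of the genes tested in each of 5 related lists (rows), with thick bars for list medians and dashed lines at 3-fold. The medians against E18 run from -9.69 for the hepatoblast list to 1.24 for the junction list, with the 9 genes at -2.22, and fitted changes of genes with 0 reads in adults depend on the fit.

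The E18 samples also held RNA of genes that mark other organs of the gut tube. Over all genes tested, 23.8% fell and 16.8% rose from E18 to adult. Of 19 pancreatic acinar genes, 16 were tested and 13 of these fell from E18 to adult. Cela1, Cela2a and Ctrl were also read in postnatal liver, up to 87.1 RPKM for Cela1, and were left aside after their values were seen. The summed level of the other 16 listed acinar genes was 320.2 and 707.2 RPKM at E18, 5.90 and 5.72 at P14, and at most 0.508 afterwards. The acinar gene Ctrb1 alone measured 119 and 322 RPKM at E18. All 9 pancreatic endocrine and progenitor genes tested fell, and the list summed to 13.2 and 45.25 RPKM at E18 and at most 1.02 at later stages. Of 6 intestinal genes tested, 5 fell and Fabp2 rose. No reads were found in either adult sample for 5 of the 16 acinar, 7 of the 9 endocrine and 1 of the 6 intestinal genes tested. Genes nearly silent after birth passed the read filter only through E18, so their fall was fixed in advance. The counts for these 3 lists are therefore no result, and the shares of all genes are no fair background for them. A set of 4 intestinal genes picked after their values were seen, Cdx1, Cdx2, Cdh17 and Vil1, summed to 11.3 and 5.78 RPKM at E18 and to between 0.114 and 0.295 at later stages.

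Within the E18 pair, most of the 9 genes and the 4 picked intestinal genes were higher in one sample and the summed acinar genes in the other. Of the 9 genes, 8 were higher in the first E18 sample than in the second by TMM-scaled counts, at up to 2.19-fold for Cftr and 1.55-fold for Epcam, where the median of all genes was 0.993. The 4 intestinal genes were 1.96-fold higher in the first sample as well, while the 16 acinar genes were 2.21-fold higher in the second. Genes left out of these sets did not all follow, since the intestinal gene Fabp2 was at 8.55 and 12.49 RPKM and the acinar gene Ctrl at 0.626 and 0.506. Leaving out either E18 sample kept the 6 calls from E18 to adult. Since both E18 samples carried these RNAs, the part of the pancreatic and intestinal RNA in the E18 levels of Epcam, Cftr, Krt19, Krt7 and the other duct genes was not tested.

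**Figure D4:**
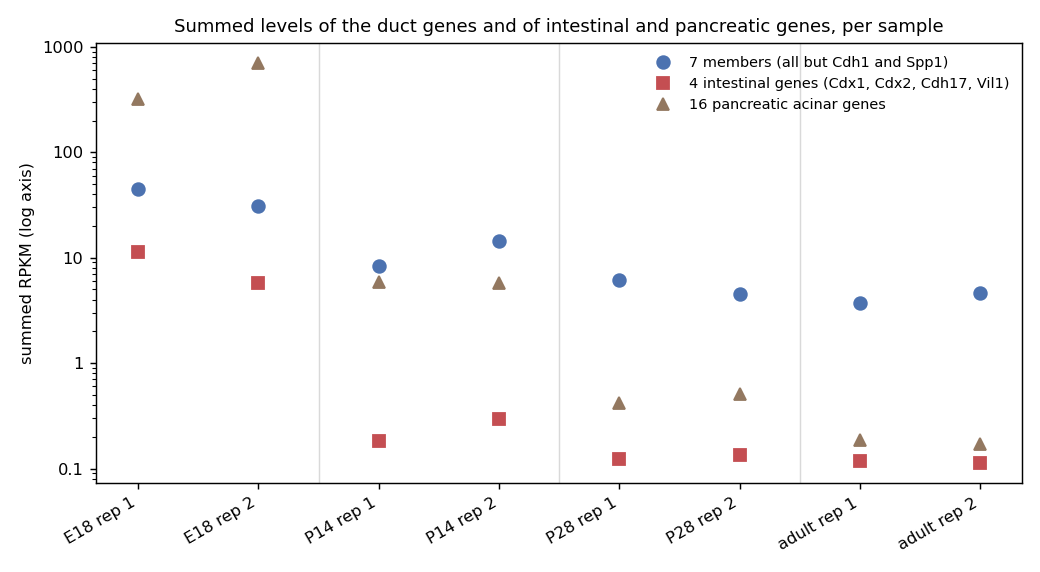
Summed RPKM (log axis) per sample (x axis) of 7 of the 9 genes (all but Spp1 and Cdh1, blue), of 4 intestinal genes (red) and of 16 pancreatic acinar genes (brown). The acinar genes sum to 320.2 and 707.2 at E18 and the intestinal genes to 11.3 and 5.78, both falling to below 1 by P28, while the 7 genes run from 44.7 and 30.7 at E18 to 3.72 and 4.66 in adults. Both the intestinal and the acinar set leave out genes whose values were seen first. All 7 intestinal genes measured, Fabp2 among them, summed to 45.4 and 32.8 at E18 and rose to 162.7 and 165.8 at P14.

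Markers of the other cells of the liver changed over the same stages. The 10 hepatocyte markers, led by Alb, Apoa1 and Ttr, were above 0 in every sample and summed to between 33420 and 98410 RPKM, lowest at E18. From E18 to adult 9 of them were called higher. The exception was Alb itself, the most abundant, with a log2 change of 0.59 (edgeR adjusted p = 0.015), short of 3-fold. By RPKM Alb was at 27820 and 27210 at E18 and at 25430 and 19730 in adults. Erythroid genes, led by Hbb-b1 and Hba-a1, summed to 9821 and 12490 RPKM at E18 and at most 123 later, and all 10 tested fell. Of the other lists, 1 of 6 mesothelial genes fell and none rose, 5 of 10 B-lymphoid genes fell and 1 rose, 2 of 8 macrophage genes fell and 2 rose, 2 of 8 stellate and mesenchymal genes fell and 2 rose, and 2 of 8 endothelial genes fell and 1 rose, where 23.8% of all genes fell and 16.8% rose. Mesothelial genes summed to 12.7 and 14.1 RPKM at E18 and 4.07 and 4.20 in adults. From P14 to adult, where 11.1% of all genes fell and 4.35% rose, 8 of 10 B-lymphoid and 5 of 10 erythroid genes fell. So did 5 of 8 endothelial, 3 of 8 stellate and mesenchymal, 2 of 8 macrophage and 1 of 6 mesothelial genes, and none of these lists held a gene that rose. Of the 10 hepatocyte markers, 2 rose and none fell. The part of these cells in the changes of the 9 genes was not tested.

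The second P14 sample was the higher for other genes besides Krt19. By TMM-scaled counts its level of Krt19 was 4.13-fold that of the first, a gap larger than that of 98.5% of genes at P14, and Epcam, Sox9 and Krt7 were 1.69-fold, 1.64-fold and 1.35-fold higher in it. Cftr, Sox4 and Cdh1 were between 1.1-fold and 1.2-fold higher in the second sample, and Jag1 and Spp1 were lower. Igf2, a fetal growth factor, measured 111.8 and 482.4 RPKM in the P14 samples, and Tspan8 0.402 and 1.39. The 4 intestinal genes were at 0.182 and 0.295 RPKM, while the 16 acinar genes were nearly equal, at 5.90 and 5.72. What set this library apart was not tested.

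The genes whose course over the 8 samples came nearest to those of 4 of the 9 genes were found by the root mean square difference of centred log2 CPM, among 17080 genes. For Krt19 they were Col4a6 (0.192), Vsig2 (0.247) and Ltbp1 (0.307). For Sox9 they were Dusp6 (0.177), Lgi4 (0.193) and the RIKEN transcript 4930524L23Rik (0.204). For Spp1 they were F12, a coagulation factor made by hepatocytes (0.115), the transcription factor Nfia (0.12) and Acadvl, an enzyme of mitochondrial fatty acid oxidation (0.127). For Cdh1 they were 2700046G09Rik (0.122), Med12l (0.127) and Tmem64 (0.144). The nearest gene to Krt19 differed from it more than the nearest gene to Spp1 or Cdh1 did from theirs, and all points share the same libraries.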

How the data were processed

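Total RNA of whole liver of FVB mice (FVB/NJ in the methods) was sequenced as poly(A) libraries in 8 samples, 2 at each of 4 stages. The labels name Trizol for RNA isolation, whereas the study's methods name a column kit. The deposited files give, for each gene symbol, the raw read count and the RPKM computed by the authors, with mm9 listed in the submitters' processing notes. The aligner and counter are not given in the sources used here, nor is the strandedness of counting.

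Counts were tested with edgeR 4.0.16 (R 4.3.3, quasi-likelihood test, TMM scaling, filterByExpr) in one fit of all 8 samples, with Benjamini-Hochberg adjustment over 17081 genes. A call needed an adjusted p below 0.1 and a change over 3-fold. The SE is the log2 change divided by the square root of F. In data simulated for E18 against adult, 98% of 200 genes changed by set folds were recovered over 17081 genes. The changed genes were drawn from well-read genes only, all genes had the same spread, and the stages shared one profile otherwise. The share recovered therefore does not speak to genes with few reads such as Cftr, to duplicates as far apart as those of Krt19, or to the scaling of E18. Replicates differed beyond sampling noise at every stage (chi-square per degree of freedom from 49.2 to 93.7). Named were all 9 genes, the 3 called genes with the largest change from E18 to adult in each related list, 6 genes set by name (Notch2, Hes1, Rbpj, Krt8, Krt18 and Afp), the most abundant genes of the other cell type lists, and the 3 nearest patterns of 4 genes. Lfng, Grhl2, Elf3, Cldn7, Pkhd1 and Hhex, and Igf2 and Tspan8 at P14, were named after their values were seen. The members and lists were chosen with earlier results of these data known. Alternatives were DESeq2 1.42.0, limma 3.58.1 on log2(RPKM + 0.1), other filters, scalings and thresholds, fits of 2 stages, and leaving out each sample. Promoter sequences came from RefSeq (GRCm38.p6), and no coordinate of the mm9 files was used. No library columns were left out. One further gene set by name and one search word are not reported here.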

Additional observations from a re-analysis of the deposited data

How the results depend on the processing

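From E18 to adult, 5 or 6 of the 9 genes were called in every alternative run, and 6 without any one sample. Requiring 10 reads in every sample left Cftr untested, and Spp1 fell short of 3-fold with library size alone (1.53) and with limma on RPKM (1.48). The 3 genes near 0 changed sign: Sox9 was -0.0059 with no filter, -0.10 with 10 reads in every sample, -0.81 with library size and -0.75 with limma, Jag1 was -0.016, -0.11, -0.82 and -0.78, and Cdh1 was -0.035, -0.13, -0.84 and -0.88. Without single samples, Sox9 ranged from -0.21 to 0.34, Jag1 from -0.0895 to 0.14 and Cdh1 from -0.24 to 0.23. From E18 to P14, Sox9 was -0.40 with library size and -0.36 with limma. Without single samples, Krt19 ranged from -1.68 to 0.36 from E18 to P14. From P28 to adult Krt19 ranged from -0.44 to 0.15, Krt7 from -0.37 to 0.018 and Spp1 from -0.28 to 0.13. Jag1 ranged from -0.78 to 0.25 from P14 to P28.

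Counts of called genes moved as follows. From E18 to P14 the 3 calls became 5 with library size and with limma, 6 at 2-fold, 7 with no fold threshold and 3 to 4 without single samples. From P14 to P28 the 2 calls became 0 with limma, 4 at 2-fold, 7 with no fold threshold and 0 to 2 without single samples. From P14 to adult the 2 calls became 1 with limma, 6 at 2-fold, 7 with no fold threshold and 1 to 3 without single samples. From P28 to adult there were 0 calls and 3 with no fold threshold. Shares of all genes grew as well once the fold threshold was dropped. From E18 to P14 39.3% were then lower and 38.2% higher. The share lower was 28.6% from P14 to P28, 32.1% from P14 to adult and 13.2% from P28 to adult. For the 2-fold, library size and limma settings the shares of all genes were not computed, so those counts have no background here. E18 was the highest stage for 6 genes by RPKM and for 5 by TMM-scaled counts per kilobase. Apart from the settings whose construction shows it, the cause was not tested.

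Samples with the same replicate number did not deviate together (correlations from -0.251 to 0.108, 1 of 6 above 0.1), so the numbers were not taken to pair samples. With the replicate number as a block, Cdh1 from E18 to adult was -0.0029, and 1 of the 9 genes was called from P14 to P28, since Krt19 came to -1.58 (edgeR adjusted p = 0.055). Depth limits Cftr most, with 7 to 10 reads in each P28 and adult sample, and with 2 samples a stage the spread is borrowed from all genes.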
